A study of Mus musculus with 27 samples.

Results

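Livers of 3 mice killed 8 days after weaning (ID8) were compared with livers of 6 mice killed 6 days after weaning (ID6), 9 of the 27 libraries of a bulk RNA sequencing series on BALB/c livers across a reproductive cycle. The 9 libraries were those whose titles start with ID8 or ID6, the study's involution days. All animals were wildtype with the genotype Balb/C, an inbred laboratory strain, and received no drug. Per the study's design text, the dams were bred at 10 to 12 weeks of age, litter sizes were evened out, and pups were removed after 10 to 14 days of lactation; age at killing is not given beyond age matching. Each animal gave 1 library from whole, frozen and pulverised liver, so every cell type of the organ contributed RNA. In such bulk samples, fewer cells of a type and less RNA per cell cannot be told apart. The other groups, which entered the same fit and so its estimate of spread and are otherwise given as reference, were nulliparous mice (NUL, 4), lactation day 10 (LAC, 3), days 2 and 4 after weaning (ID2, 3; ID4, 4) and 4 weeks after weaning (REG, 4).

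After weaning, the maternal liver leaves a state in which it supplied substrate for milk. Hepatocytes make most plasma proteins in the endoplasmic reticulum (ER), where chaperones fold them; when folding falls behind, sensors of the unfolded protein response raise the transcripts of chaperones and of proteins that remove misfolded chains. The same cells make cholesterol through the mevalonate pathway, whose genes are switched together by the SREBP transcription factors. They also degrade amino acids to urea, and hold the methionine cycle, in which betaine-homocysteine methyltransferase and methionine adenosyltransferase keep up the supply of methyl groups.

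The animals' title numbers limited the comparison. All 3 ID8 numbers are under 200 and all 6 ID6 numbers are 200 or over, and the labels do not say what the numbers stand for, so stage and number range cannot be told apart within these 9 libraries. The ID6 libraries held 65089732 to 75664540 estimated counts. The ID8 libraries held 41120650 (ID8_101b), 63829299 (ID8_98b) and 68700345 (ID8_14) counts. Mitochondrial genes took 2.87% to 4.47% of counts at ID6 and 3.32% to 4.89% at ID8. Mean fragment length ran from 247.8 to 274.0 bases at ID6 and from 247.7 to 270.0 bases at ID8. Both groups were split. ID6_201, ID6_209 and ID6_216 lay between 247.8 and 249.3 bases, and ID6_218, ID6_230 and ID6_232 between 265.9 and 274.0. ID8_101b was at 247.7 bases, ID8_98b at 263.1 and ID8_14 at 270.0. The hepatocyte markers summed to 107900 to 159600 CPM (counts scaled to the TMM-adjusted library size) at ID6 and 135100 to 147700 at ID8, so the labelled tissue was present in every library.

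Of 16428 genes tested, 390 were higher and 287 lower at ID8, 4.12% in all (2.37% higher, 1.75% lower; edgeR quasi-likelihood test, Benjamini-Hochberg adjusted p under 0.05). A gene is said below to have risen or fallen only if it was called in this way. Most changes were modest. The median log2 fold change was 0.519 among the genes that rose and -0.481 among those that fell, and 79 called genes moved by more than 1 on the log2 scale. CPM values did not overlap between the 3 ID8 and 6 ID6 libraries in 565 of the 677 called genes, and in 10.1% of all genes tested.

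**Figure D1:**
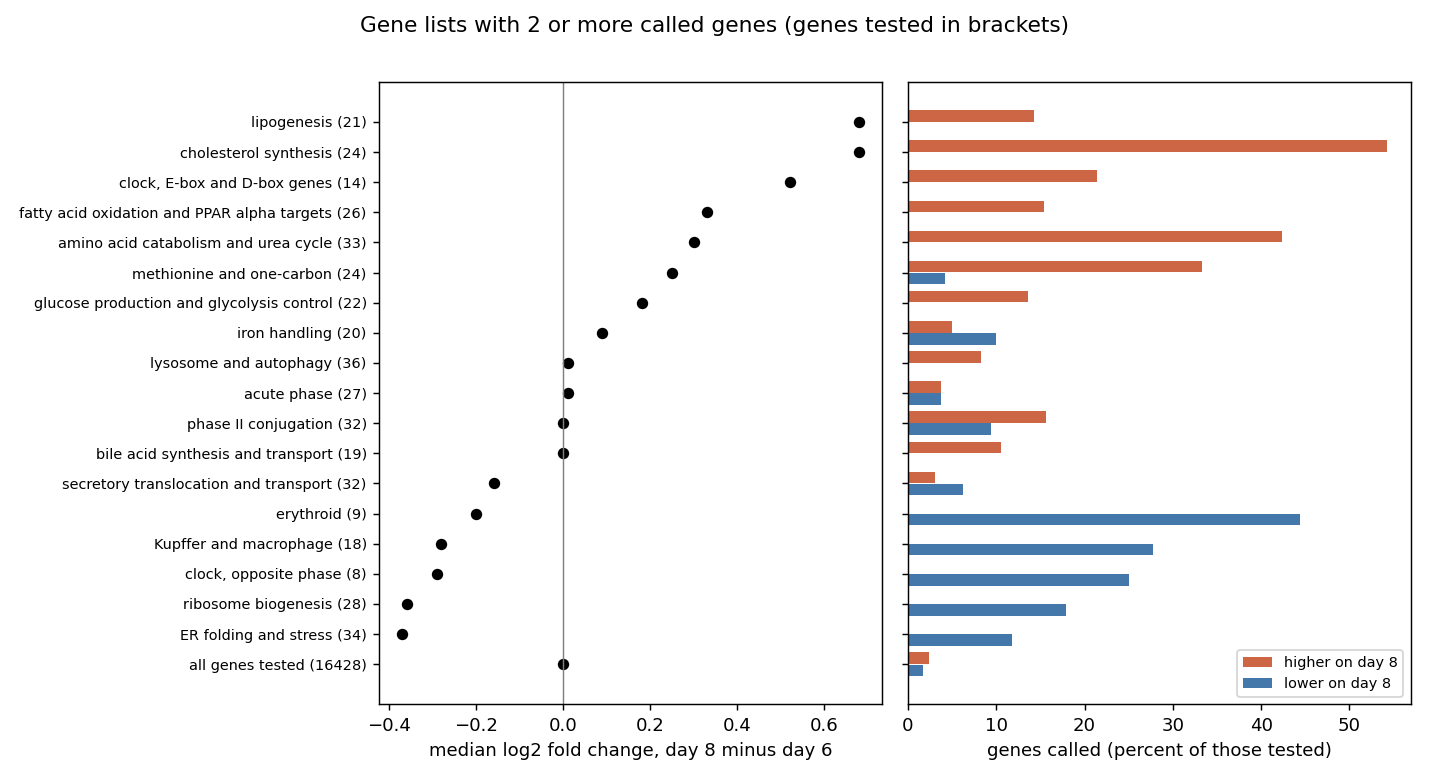
Left: median log2 fold change, ID8 minus ID6, of each gene list with 2 or more called genes and of all genes tested; right: percent of each list's tested genes called higher (orange) or lower (blue) at ID8. Cholesterol synthesis had the largest share called higher (54.2%), and the ER list the lowest median (-0.37).

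Some transcripts of the ER protein-folding machinery fell at ID8. Of 34 genes of the ER folding and stress list, 4 fell and none rose (11.8% lower, against 1.75% of all genes), and 32 had a log2 fold change below 0. The list's median was -0.37, against 0.0 over all genes. The 4 that fell were Derl3, Dnajb9, Ern1 and Ero1l. Their products act at different steps: Derl3 helps to draw misfolded proteins out of the ER, Dnajb9 is a co-chaperone of the chaperone Hspa5, Ern1 encodes the stress sensor IRE1, and Ero1l re-oxidises the disulfide-forming enzymes.

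Derl3 (ENSMUSG00000009092, chromosome 10, 75893413 to 75895941) was expressed at 0.973 CPM in the lowest, 3.14 in the median and 9.28 in the highest ID6 library. In the ID8 libraries it was at 0.570 (ID8_101b), 0.604 (ID8_14) and 0.442 CPM (ID8_98b). The groups did not overlap, and the ID6 animals varied far more among themselves than the ID8 animals. Derl3 fell by 2.83 on the log2 scale (SE 0.73, edgeR adjusted p = 0.0322); 5 of the 9 fits that each omitted 1 library no longer called it (largest edgeR adjusted p = 0.136, without ID8_98b).

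Dnajb9 (ENSMUSG00000014905, chromosome 12, 44205559 to 44210326) was at 85.0, 108.4 and 140.3 CPM in the lowest, median and highest ID6 library, and at 40.4 (ID8_101b), 58.9 (ID8_14) and 41.6 CPM (ID8_98b) at ID8. Every ID8 value lay below every ID6 value. Dnajb9 fell by 1.21 on the log2 scale (SE 0.22, edgeR adjusted p = 0.00413) and stayed called in all 9 fits without 1 library. Ern1 fell from 82.4 ± 10.1 to 62.4 ± 5.69 CPM (SD, n = 6 and 3; log2 fold change -0.40), a call lost without ID8_98b (edgeR adjusted p = 0.093). Ero1l fell from 31.4 ± 2.11 to 23.9 ± 2.71 CPM (log2 fold change -0.39), with the largest edgeR adjusted p of 0.124 without ID8_98b.

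The abundant chaperones of the list did not pass the test. Hspa5, the main ER chaperone of the Hsp70 family, was at 896.6, 1230 and 1578 CPM (lowest, median and highest) in ID6 and at 808.0, 977.3 and 718.4 CPM in ID8_101b, ID8_14 and ID8_98b, and the ranges overlapped (log2 fold change -0.56, SE 0.28, edgeR adjusted p = 0.268). Hsp90b1 was at 893.3 ± 130.5 and 819.5 ± 66.5 CPM and P4hb, a protein disulfide isomerase, at 986.6 ± 115.7 and 870.2 ± 55.8 CPM (SD, n = 6 and 3). Creld2, Sdf2l1, Hyou1, Manf and Herpud1, chosen after their values were seen, had CPM below every ID6 library at ID8 and log2 fold changes of -1.10, -1.03, -0.97, -0.79 and -0.84, with edgeR adjusted p of 0.217, 0.111, 0.164, 0.143 and 0.108. Their spread across all stages was wide; Creld2 was at 85.1 ± 68.4 CPM at REG (SD, n = 4).

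Among other genes of the same response, again chosen after their values were seen, Eif2ak3, which encodes the stress sensor PERK, fell from 30.8 ± 5.11 to 16.0 ± 2.63 CPM (SD, n = 6 and 3; log2 fold change -0.94, edgeR adjusted p = 0.00386). Ficd, an enzyme that modifies Hspa5, fell by 0.93 on the log2 scale (edgeR adjusted p = 0.00861), with an edgeR adjusted p of 0.0533 without ID8_101b. Atf4 (log2 fold change -0.40) and Ddit3 (-0.46), transcription factors of the PERK arm, did not pass the test, and Trib3, a target of that arm, had a log2 fold change of 0.54 (edgeR adjusted p = 0.0988). Of the 32 genes of the secretory translocation and transport list, 1 rose and 2 fell (3.12% and 6.25%, against 2.37% and 1.75% of all genes); none was called without ID8_101b. Arfgap3, a GTPase-activating protein of Golgi vesicles, fell from 20.3 ± 3.37 to 9.66 ± 1.37 CPM, Sec11c, a signal peptidase subunit, fell from 30.5 ± 1.79 to 25.0 ± 2.03 CPM, and Sar1b, the GTPase of coat protein II vesicles, rose from 129.1 ± 10.8 to 173.6 ± 4.43 CPM. The most abundant members that were not called were Lman2 (272.0 ± 13.9 and 284.0 ± 14.5 CPM), Sec61a1 (244.1 ± 31.9 and 190.3 ± 27.4) and Tmed2 (241.5 ± 11.7 and 216.8 ± 2.42). The ER list kept 1 call without ID8_98b and 2 without ID8_101b, and its median stayed between -0.40 and -0.32 in the 9 fits without 1 library.

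Some promoters of the ER list hold the ER stress element, a sequence that the comparison did not use. List and element were both chosen for the same stress response, so the share of carriers is no independent result. The ER stress element (CCAAT, 9 bases of any kind, then CCACG, on either strand) was searched in RefSeq promoter windows of GRCm38.p6 that run from 250 bases before to 50 bases after a gene's start. It was present in 37 of 27025 genes with a window (0.137%) and in 9 of the 27 ER list genes with a window (33.3%), of which Derl3 was the only called gene; the windows of Dnajb9 and Ern1 do not hold it. The 9 elements are shown because they mark which list members carry it, each read 5′ to 3′ from CCAAT, with the fixed bases in capitals.
Derl3: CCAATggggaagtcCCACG
Hspa5: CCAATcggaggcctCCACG
Creld2: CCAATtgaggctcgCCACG
Syvn1: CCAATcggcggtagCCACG
Pdia6: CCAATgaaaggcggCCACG
Dnajc3: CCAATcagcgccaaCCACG
Hsp90b1: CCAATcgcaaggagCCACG
Calr: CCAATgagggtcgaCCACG
Canx: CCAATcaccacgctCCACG
In Derl3, Creld2 and Calr the element lies on the strand opposite to the gene. The log2 fold changes of the 9 carriers ran from -2.83 (Derl3) through -1.10 (Creld2), -1.04 (Syvn1), -0.56 (Hspa5), -0.39 (Dnajc3), -0.28 (Pdia6), -0.20 (Calr) and -0.15 (Canx) to -0.12 (Hsp90b1). All 9 were below 0 and 1 was called, beside 32 of 34 below 0 and 4 called in the whole list; the carriers are named because they hold the element. The Derl3 window (chr10:75893148-75893447, plus strand, RefSeq) is shown whole, since this gene had the largest fall of the list, with the element in capitals as it reads on the gene's strand, ending 137 bases before the start that the RefSeq window uses, which differs from the GENCODE start given above.
Derl3 promoter: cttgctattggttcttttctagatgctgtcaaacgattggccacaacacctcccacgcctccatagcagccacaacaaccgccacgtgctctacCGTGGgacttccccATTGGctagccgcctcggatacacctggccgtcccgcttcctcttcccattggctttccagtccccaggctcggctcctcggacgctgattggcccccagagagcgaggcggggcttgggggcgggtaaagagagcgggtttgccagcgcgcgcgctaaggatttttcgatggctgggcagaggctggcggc
The unfolded protein response element TGACGTGG was in 0.714% of all genes with a window and in none of the 27. The C/EBP-ATF motif TGATGCAA was in 1.03% of all genes and in 1 of the 27, Herpud1. A match describes the letters of the window and says nothing of binding.

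**Figure D2:**
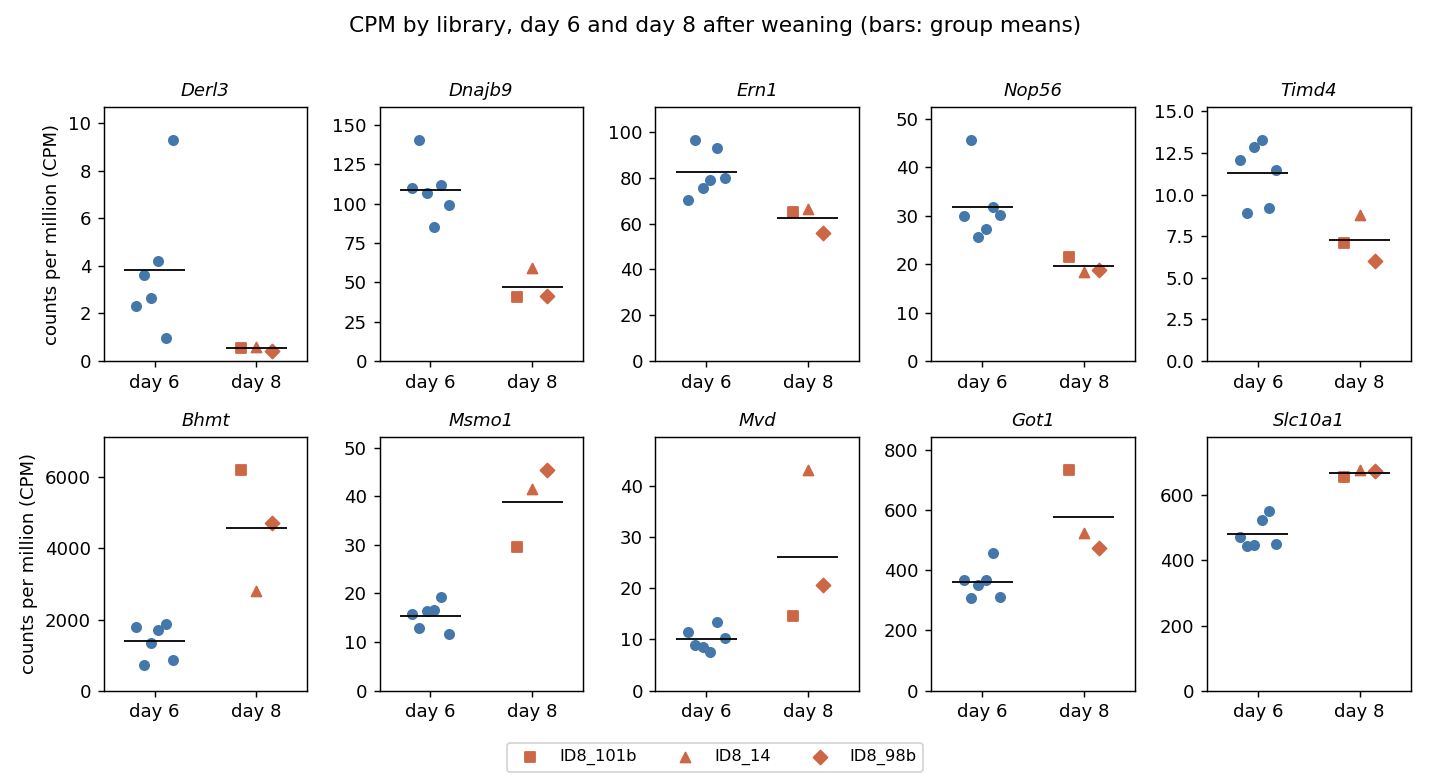
CPM of 10 genes in the 6 ID6 libraries (blue) and the 3 ID8 libraries (orange, one symbol per library), with group means as bars; each panel starts at 0. Derl3 spans 0.973 to 9.28 CPM at ID6 and lies between 0.442 and 0.604 CPM at ID8, and in the 10 genes shown no ID8 value falls within the ID6 range.

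Some genes of ribosome assembly fell at ID8 as well. Of 28 genes in the ribosome biogenesis list, which make the ribosomal RNA and assemble the subunits in the nucleolus, 5 fell and none rose (17.9% lower against 1.75% of all genes), with a median log2 fold change of -0.36. Nop56, a core protein of the box C/D particles that guide RNA methylation, was at 25.7, 29.99 and 45.5 CPM (lowest, median, highest) in ID6 and at 21.4 (ID8_101b), 18.4 (ID8_14) and 18.7 CPM (ID8_98b) at ID8. No values overlapped, and the highest ID6 value, in ID6_209, stood well above the others. Nop56 fell by 0.70 on the log2 scale (SE 0.16, edgeR adjusted p = 0.0128). Its partner Nop58 fell from 33.5 ± 8.46 to 20.2 ± 1.11 CPM, the RNA helicase gene Ddx21 from 58.6 ± 10.3 to 38.99 ± 4.20, Gnl3, a nucleolar GTPase, from 25.4 ± 6.37 to 15.4 ± 1.48, and Nop14, of the small-subunit processome, from 23.6 ± 3.07 to 17.0 ± 0.573 (SD, n = 6 and 3). The abundant nucleolar proteins Ncl (155.4 ± 13.7 and 149.4 ± 13.9 CPM) and Npm1 (118.0 ± 14.5 and 117.2 ± 13.3) and the assembly factor Bop1 (36.7 ± 4.65 and 32.7 ± 1.11) did not pass the test. Without ID8_98b none of the list was called and without ID8_101b 1 was, while the median stayed between -0.40 and -0.30.

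Many cholesterol synthesis genes rose. Of 24 genes in the list, 13 rose and none fell (54.2% higher, against 2.37% of all genes), all 24 log2 fold changes were above 0, and the median was 0.68. Genes that rose, of which Fdps, Sqle, Nsdhl and Dhcr7 were picked with their values known, lie along the path from mevalonate to cholesterol: Mvk, Mvd, Idi1 and Fdps of the isoprenoid steps, Sqle, which makes squalene epoxide, and Cyp51, Tm7sf2, Msmo1, Nsdhl, Hsd17b7 and Dhcr7 of the sterol steps. Stard4, which carries sterol within the cell, rose too.

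Msmo1 (ENSMUSG00000031604, chromosome 8, 64718139 to 64733792), the sterol C4-methyl oxidase, was at 11.6, 16.1 and 19.4 CPM (lowest, median, highest) in ID6 and at 29.6 (ID8_101b), 41.4 (ID8_14) and 45.5 CPM (ID8_98b) at ID8. The lowest ID8 value was above the highest ID6 value. The log2 fold change was 1.33 (SE 0.17, edgeR adjusted p = 0.000246), and the call held in all 9 fits without 1 library. Mvd (ENSMUSG00000006517, chromosome 8, 122433601 to 122443422), which makes isopentenyl diphosphate, was at 7.60, 9.59 and 13.4 CPM in ID6 and at 14.5, 43.2 and 20.6 CPM in ID8_101b, ID8_14 and ID8_98b. ID8_14 held the highest value by a wide margin (log2 fold change 1.38, SE 0.32, edgeR adjusted p = 0.0206; 0.17 without ID8_14). Idi1, the isomerase of the next step, rose from 26.8 ± 7.14 to 59.2 ± 12.0 CPM (SD, n = 6 and 3; log2 fold change 1.14), though its counts were fractional in 24 libraries, which arises when reads are shared with another gene. Tm7sf2, a sterol reductase, rose from 77.9 ± 17.6 to 142.4 ± 7.34 CPM (0.87, fractional in 18 libraries). Cyp51 rose from 30.2 ± 3.49 to 52.8 ± 6.60 CPM, Hsd17b7 from 20.1 ± 3.18 to 36.0 ± 6.81, Mvk from 13.7 ± 1.94 to 22.5 ± 3.29 and Stard4 from 53.4 ± 7.495 to 82.9 ± 14.5, and these 4 stayed called in every fit without 1 library.

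Several other genes of the pathway did not pass the test. Hmgcs1, which makes HMG-CoA for the pathway, was at 116.1 ± 11.6 and 181.6 ± 52.7 CPM (SD, n = 6 and 3; log2 fold change 0.65, edgeR adjusted p = 0.0607). Insig1, which retains SREBP in the ER, was at 194.0 ± 69.4 and 332.7 ± 205.1 CPM, and Sc5d, a sterol desaturase, at 229.8 ± 42.7 and 306.0 ± 160.2. In both, ID8_14 held the highest value, 564.6 and 490.7 CPM. Srebf2, which encodes SREBP2 and was named after its values were seen, had a log2 fold change of 0.23 (edgeR adjusted p = 0.22). Without ID8_14 the list had 8 called genes and a median of 0.51, and with the clock measure described below as a covariate it had 4 called genes and a median of 0.55.

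All 16 genes of the cholesterol list with a RefSeq promoter window hold the letters CCAAT on one strand or the other, against 41.1% of all 27025 genes; this motif, the core of NF-Y binding sites, was searched after the data had been seen, and overlaps the ER stress element. The windows of Idi1 and Mvd are shown for genes that rose, with each CCAAT, or ATTGG on the other strand, in capitals. The Idi1 window is chr13:8885356-8885655 (plus strand) and the Mvd window chr8:122443373-122443672 (minus strand), both GRCm38.p6.
Idi1 promoter: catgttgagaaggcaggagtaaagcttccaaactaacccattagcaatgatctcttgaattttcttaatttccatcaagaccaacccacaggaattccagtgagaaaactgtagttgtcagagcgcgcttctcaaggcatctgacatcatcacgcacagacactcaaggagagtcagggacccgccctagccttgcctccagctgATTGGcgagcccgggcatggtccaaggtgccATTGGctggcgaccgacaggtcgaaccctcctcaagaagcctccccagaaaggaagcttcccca
Mvd promoter: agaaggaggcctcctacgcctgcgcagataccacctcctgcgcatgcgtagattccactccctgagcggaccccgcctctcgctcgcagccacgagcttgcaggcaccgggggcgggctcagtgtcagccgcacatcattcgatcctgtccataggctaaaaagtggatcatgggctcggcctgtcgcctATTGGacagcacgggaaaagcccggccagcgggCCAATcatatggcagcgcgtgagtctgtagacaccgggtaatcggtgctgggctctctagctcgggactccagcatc
Of the ER list, 23 of 27 genes with a window (85.2%) held CCAAT, and of the ribosome biogenesis list 6 of 23 (26.1%).

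Some fatty acid genes rose as well. In the lipogenesis list, 3 of 21 genes rose (14.3%, against 2.37% of all genes) and none fell, with a median of 0.68. Fads2, a desaturase of polyunsaturated fatty acids, rose from 288.7 ± 52.8 to 463.8 ± 39.3 CPM (SD, n = 6 and 3), and Elovl5, an elongase, from 584.1 ± 98.4 to 808.1 ± 91.9. Thrsp, a protein of lipogenic tissues, was at 32.7, 75.4 and 120.9 CPM (lowest, median, highest) in ID6 and at 156.7, 706.1 and 67.7 CPM in ID8_101b, ID8_14 and ID8_98b. The ID8 values spanned more than the ID6 range, and its call (log2 fold change 2.07, edgeR adjusted p = 0.0436) was lost without ID8_14 (edgeR adjusted p = 0.587). Fasn, the fatty acid synthase, was likewise at 320.1, 1703 and 275.4 CPM in those libraries and was not called (edgeR adjusted p = 0.169), nor were Scd1 (5914 ± 2752 and 10370 ± 5245 CPM) and Dgat2 (536.0 ± 35.1 and 547.8 ± 62.4). Without ID8_14 the median of the list was 0.08. The rising genes numbered 1 in each fit without ID6_201, ID6_209, ID6_216, ID6_232, ID8_101b or ID8_14.

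In the list of fatty acid oxidation and PPAR alpha targets 4 of 26 genes rose (15.4%, against 2.37% of all genes) and the median was 0.33. Hadha and Hadhb, the subunits of the mitochondrial trifunctional protein, rose from 359.1 ± 11.8 to 454.5 ± 62.9 and from 207.8 ± 7.89 to 259.3 ± 34.6 CPM (SD, n = 6 and 3). Acot1, an acyl-CoA thioesterase, rose from 4.92 ± 1.19 to 13.7 ± 9.87 CPM, while ID8_14 (3.38 CPM) lay below the lowest ID6 library (3.49 CPM); its call was absent in 8 of 9 fits (largest edgeR adjusted p = 0.37, without ID8_98b). Without ID8_14 12 genes of the list were called, and none without ID8_101b or without ID8_98b. ID8_14 was therefore the library with the highest Fasn, Thrsp, Mvd and Insig1 and with the lowest Acot1 of the 3.

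Part of the genes of amino acid catabolism and the urea cycle rose. Of 33 genes, 14 rose and none fell (42.4% higher against 2.37% of all genes), with a median log2 fold change of 0.30. Got1 (ENSMUSG00000025190, chromosome 19, 43499752 to 43524605), the cytosolic aspartate aminotransferase, was at 307.9, 358.1 and 455.8 CPM (lowest, median, highest) in ID6 and at 733.3 (ID8_101b), 522.4 (ID8_14) and 472.4 CPM (ID8_98b) at ID8. The groups did not overlap, and ID8_101b was the highest (log2 fold change 0.68, SE 0.13, edgeR adjusted p = 0.00376; 0.081 without ID8_101b). The urea cycle enzymes Ass1 and, chosen after its values were seen, Asl rose by 0.49 and 0.96 on the log2 scale, as did Slc25a15, the ornithine carrier of the mitochondrion, from 284.5 ± 24.1 to 398.7 ± 71.9 CPM. Aass, of lysine breakdown, rose from 162.0 ± 14.1 to 238.2 ± 37.0 CPM, Agxt, of glyoxylate detoxification, from 403.3 ± 57.5 to 584.5 ± 104.8 and Bckdha, of branched-chain amino acids, from 237.6 ± 18.5 to 310.0 ± 22.1 (SD, n = 6 and 3). The counts of Bckdha were fractional in 27 libraries and those of Ass1 in 26.

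Cps1, which starts the urea cycle, was at 4370 ± 257.1 and 5112 ± 1365 CPM and Tat, the tyrosine aminotransferase, at 1096 ± 223.5 and 1076 ± 390.8 (SD, n = 6 and 3), and these abundant members did not pass the test. Without ID8_101b no gene of the amino acid list was called, and without ID8_98b 8 were; the median was between 0.26 and 0.39 in the 9 fits without 1 library. With the clock covariate 7 were called.

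The methionine and one-carbon list held 8 genes that rose and 1 that fell among 24 (33.3% higher and 4.17% lower, against 2.37% and 1.75% of all genes), with a median of 0.25. Bhmt (ENSMUSG00000074768, chromosome 13, 93616675 to 93637961), which remethylates homocysteine with betaine, was at 728.9, 1530 and 1884 CPM (lowest, median, highest) in ID6 and at 6210 (ID8_101b), 2796 (ID8_14) and 4711 CPM (ID8_98b) at ID8. The means differed 3.29-fold, beyond the spread of either group (SE of the log2 fold change 0.27, edgeR adjusted p = 0.00149), and its counts were fractional in 27 libraries. Its neighbour Bhmt2, which uses S-methylmethionine, rose from 204.7 ± 13.9 to 277.1 ± 25.95 CPM, Mat1a, the liver methionine adenosyltransferase, from 2044 ± 179.1 to 3148 ± 497.8, and Gnmt, which consumes surplus S-adenosylmethionine, from 1174 ± 244.6 to 1803 ± 242.6 (SD, n = 6 and 3). Dmgdh, the next enzyme of choline breakdown after Bhmt, rose from 434.1 ± 46.3 to 555.7 ± 40.1 CPM. Nnmt, which methylates nicotinamide, rose from 18.8 ± 7.37 to 59.6 ± 34.4 CPM, with 98.3 CPM in ID8_101b (edgeR adjusted p = 0.275 without that library). Mthfd2, a mitochondrial folate enzyme, fell from 1.052 ± 0.251 to 0.469 ± 0.120 CPM. Cdo1, Cbs and Aldh1l1, the most abundant members not called, had log2 fold changes of 0.08, 0.09 and 0.43. The genes that rose numbered 1 without ID8_101b, 3 without ID8_98b, and 5 without ID6_209 or without ID6_232.

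Genes of bile acid and sugar handling gave smaller groups. In the bile acid list, where 9 log2 fold changes were above 0 and 10 below, 2 of 19 genes rose (10.5%, against 2.37% of all genes): Cyp8b1, the sterol 12-alpha-hydroxylase, from 237.4 ± 48.3 to 465.8 ± 105.6 CPM, and Slc10a1, the transporter that takes bile acids up from the blood. Slc10a1 was at 445.0, 460.3 and 551.4 CPM (lowest, median, highest) in ID6 and at 657.0, 678.8 and 673.4 CPM in ID8_101b, ID8_14 and ID8_98b. The 3 ID8 values lay close together above the whole ID6 range (log2 fold change 0.48, SE 0.09, edgeR adjusted p = 0.00452). Both stayed called in every fit without 1 library. Abcb11, the bile salt export pump, was at 1032 ± 47.5 and 1031 ± 135.0 CPM, and neither Slc27a5 nor Slco1b2 was called.

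In the list of glucose production and glycolysis control 3 of 22 rose (13.6%, against 2.37% of all genes; 1 without ID8_101b): Pfkfb1, the bifunctional enzyme that sets fructose 2,6-bisphosphate, from 8.85 ± 2.06 to 17.96 ± 6.90 CPM, Fbp1, fructose bisphosphatase, from 902.5 ± 104.6 to 1279 ± 254.9, and Slc37a4, the glucose 6-phosphate carrier of the ER, from 120.4 ± 13.6 to 175.8 ± 27.9 (SD, n = 6 and 3). Pck1, Pygl and Pcx were not called. Slc2a5, a fructose transporter outside the lists and chosen after its values were seen, rose from 0.863 ± 0.279 to 3.47 ± 0.604 CPM. Of 20 genes of the iron list 1 rose and 2 fell (5% and 10%, against 2.37% and 1.75% of all genes); the 2 falls were not called without ID8_101b. Hfe2, the hemojuvelin gene, rose from 45.2 ± 9.60 to 78.3 ± 4.06 CPM, while the iron transporter genes Slc11a2 and Slc40a1 fell by 0.43 and 0.40 on the log2 scale. Of 49 nuclear genes of the respiratory chain 0 were called by edgeR, 2 by DESeq2 and 13 had an unadjusted p under 0.05; all 49 had log2 fold changes above 0, with a median of 0.16 that was 0.03 on log2(TPM + 1).

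Some clock genes also differed between the groups. The liver clock drives transcripts with E-box and D-box motifs at one phase and others at the opposite phase, so clock transcripts depend on the hour of killing, which the labels do not give. Of 14 genes of the first kind 3 rose (Dbp, Tef and Cry2; 21.4%, against 2.37% of all genes) with a median of 0.52. Of 8 of the opposite phase 2 fell (Cry1 and Npas2; 25%, against 1.75% of all genes) with a median of -0.29. The difference between the mean log2 CPM of both lists, used as a clock measure per library, ran from -3.49 to -2.85 at ID6 and from -2.47 to -1.56 at ID8, without overlap. Tef was at 19.2, 23.3 and 27.3 CPM (lowest, median, highest) in ID6 and at 52.8, 49.99 and 35.6 CPM in ID8_101b, ID8_14 and ID8_98b. Cry1 was at 28.1, 32.3 and 41.6 CPM in ID6 and at 17.6, 13.3 and 15.8 CPM in the same ID8 libraries. The groups did not overlap in either gene. Per1 and Per2, named after their values were seen, had log2 fold changes of -0.20 and 0.20 and overlapped. Without ID8_101b neither list had a called gene.

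Tef and Cry1 moved in opposite directions, and both windows hold an E-box CACGTG, which 8.09% of all genes with a window hold; it is shown in capitals with 20 bases on each side (Tef, chr15:81802526-81802571, plus strand; Cry1, chr10:85185089-85185134, minus strand, GRCm38.p6).
Tef: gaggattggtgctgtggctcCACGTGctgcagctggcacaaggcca
Cry1: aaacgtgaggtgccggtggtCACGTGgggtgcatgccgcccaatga
Of the E-box and D-box list, 4 of 11 genes with a window held the E-box (Tef, Per1, Ciart and Bhlhe41) and 1, Per3, held a D-box (TTATGTAA or TTACGTAA, in 1.23% of all genes). Whether the hour of killing had a part in the other results was not tested; with the clock measure as a covariate 650 genes were called, and 64 of the 96 screened genes called without it were among them; the ER and cholesterol lists had medians of -0.44 and 0.55, and the cholesterol list 4 calls in place of 13.

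Some markers of liver macrophages fell at ID8. Of 18 Kupffer and macrophage markers 5 fell and none rose (27.8% lower against 1.75% of all genes), with a median of -0.28. Timd4, a receptor for dying cells on resident Kupffer cells, was at 8.91, 11.8 and 13.3 CPM (lowest, median, highest) in ID6 and at 7.12, 8.78 and 5.98 CPM in ID8_101b, ID8_14 and ID8_98b. The groups lay next to each other without overlap. The scavenger receptor gene Marco fell from 5.43 ± 1.34 to 2.30 ± 0.701 CPM, Cd5l, a secreted macrophage protein, from 190.5 ± 41.5 to 113.7 ± 29.0, Cd68, a lysosomal protein, from 11.2 ± 1.495 to 7.15 ± 1.99, and Vsig4, a complement receptor, from 44.5 ± 7.61 to 33.3 ± 6.15 (SD, n = 6 and 3). Clec4f, which marks Kupffer cells, was at 252.6 ± 51.1 and 209.5 ± 18.6 CPM, and Mpeg1 and Lyz2 at 138.8 ± 18.1 against 130.5 ± 36.7 and at 114.9 ± 14.4 against 97.4 ± 5.64, and these were not called. The summed level of the 18 markers overlapped, at 954.2 to 1356 CPM in ID6 and 837.9 to 1040 CPM in ID8. None of the list was called without ID8_101b, 1 without ID8_98b and 3 without ID6_232.

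Other cell types showed the following values. Jchain, of plasma cells, rose from 3.04 ± 0.38 to 6.15 ± 0.184 CPM (SD, n = 6 and 3), and the B and plasma cell markers summed to 29.8 to 40.2 CPM at ID6 and 49.7 to 51.3 CPM at ID8, without overlap. None of 15 endothelial, 9 bile duct, 16 T and NK cell, 11 neutrophil or 6 platelet markers tested was called by edgeR. Over all genes 4.12% were called, so 0 calls in lists this short lie near the background. The bile duct markers summed to 47.6 to 60.8 CPM at ID6 and 61.0 to 72.0 CPM at ID8, and 15 of the 16 T and NK cell markers had log2 fold changes below 0 (median -0.41). The exocrine pancreas markers summed to 44.8 CPM in ID8_98b and to between 10.9 and 14.4 CPM in the other 8 libraries, and none of its 14 genes was called; Derl3, which secretory cells also express, was lowest in ID8_98b. The part of these cell types in the ER result was not tested.

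The adult hemoglobin genes, carried by red blood cells in the tissue, fell at ID8. Their sum was 103.9 ± 79.1 CPM (SD, n = 6, from 50.6 to 257.7) at ID6 and 23.0 ± 7.32 CPM (n = 3, from 16.6 to 30.96) at ID8. Both groups stood below the other 5 stages, whose means ran from 476 (NUL) to 882.6 CPM (LAC). Hbb-bt, Hba-a2, Hbb-bs and Hba-a1 fell by 2.38, 2.26, 2.20 and 1.88 on the log2 scale (edgeR adjusted p = 0.0429, 0.0213, 0.0213 and 0.0379). All 4 have close copies in the genome that compete for reads, seen here as fractional counts in 27 libraries. Alas2, the erythroid 5-aminolevulinate synthase, was at 3.88 ± 1.76 and 3.36 ± 0.700 CPM and was not called, nor were Bpgm and Klf1. No erythroid gene was called without ID8_101b or without ID8_98b.

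Of the remaining genes, several were named by the rule on size and non-overlap. Osgin1 (ENSMUSG00000074063, chromosome 8, 119434124 to 119446256), an oxidative stress response gene, was at 327.2, 357.7 and 427.0 CPM (lowest, median, highest) in ID6 and at 121.5, 129.7 and 155.4 CPM in ID8_101b, ID8_14 and ID8_98b. Its ID8 values lay far below all ID6 values (log2 fold change -1.46, SE 0.19, edgeR adjusted p = 0.000246), and the call held without each library. Of 27 acute phase genes 1 fell and 1 rose (3.7% each, against 1.75% and 2.37% of all genes). Serpina3n, a protease inhibitor, rose by 0.40 on the log2 scale, and Saa3, a serum amyloid, fell from 21.7 ± 7.94 to 8.58 ± 1.67 CPM. Outside that list, Cyp2j9, a cytochrome P450, fell from 4.28 ± 0.864 to 1.69 ± 0.571 CPM. Nfxl1, a zinc finger gene, fell from 24.8 ± 5.70 to 10.99 ± 0.911 CPM (SD, n = 6 and 3). Cdkn1a, the cell cycle inhibitor p21, fell from 45.3 ± 14.3 to 18.7 ± 7.504 CPM. It was the only called gene of the 28 in the cell cycle list (3.57% lower, against 1.75% of all genes). Its groups overlapped, with 20.5 CPM in ID6_230 and 26.1 CPM in ID8_98b. No gene of that list was called without ID6_209. Of called genes with no overlap, a symbol that is no placeholder and a mean log2 CPM of at least 1 over all libraries, the rule also named as rising Slc25a34, a mitochondrial carrier (1.34), Ugt1a5, a glucuronosyltransferase (1.28), Mycl, of the MYC family (1.24), Hr, a corepressor (1.24), Slc16a5, a monocarboxylate carrier family member (1.17), and Tmie (1.14). Ugt1a5 and Ugt1a1 share exons, and Ugt1a1 fell by 0.36 while Ugt1a5 rose, and how reads in those exons are assigned affects both values.

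Among detoxifying enzymes, 5 of 32 phase II conjugation genes rose and 3 fell (15.6% and 9.38%, against 2.37% and 1.75% of all genes). Without ID8_101b none of the list was called by edgeR. Gstt2, a glutathione transferase, rose from 51.3 ± 4.95 to 71.4 ± 6.77 CPM, Sult1b1, a sulfotransferase, from 15.1 ± 2.85 to 22.8 ± 3.67, Gstm2 from 119.4 ± 23.5 to 180.6 ± 37.2 and Tpmt, which methylates thiopurines, from 43.4 ± 4.20 to 54.9 ± 3.58 (SD, n = 6 and 3). Gstp1 fell from 287.1 ± 51.2 to 208.8 ± 25.9 CPM, with counts fractional in 27 libraries. The abundant Gsta3, Gstm1 and Mgst1 were not called. On log2(TPM + 1) 1 gene of the list was higher and 5 were lower. Of 32 xenobiotic cytochrome P450 genes 1 rose (3.12%, near the 2.37% of all genes). This was Cyp2b9, from 403.3 ± 57.7 to 524.0 ± 36.8 CPM, a call lost in 6 of 9 fits (largest edgeR adjusted p = 0.173, without ID8_98b). None of 35 complement and coagulation, 31 proteasome, 33 hormone and secreted factor, 23 apolipoprotein or 27 interferon-stimulated genes was called by edgeR. Over all genes 4.12% were called, and a list of this size can have 0 calls at that share. With 1 library left out, up to 2 apolipoprotein genes were called higher and up to 1 lower. Up to 1 complement and coagulation gene was called lower in such fits.

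The stages before and after place both groups. These comparisons share libraries with the one above, so their values are given side by side and no agreement between them is counted. Against NUL, 1.08% of genes were called for ID6 and 0.499% for ID8, and 8.53% were called for ID6 against ID4. In the cholesterol list, 18 of 24 genes were lower at ID6 than in NUL (median -0.95; 0.682% of all genes were lower) and 3 at ID8 (median -0.26; 0.14% of all genes). Msmo1 stood at 75.4 ± 22.5 CPM in NUL (SD, n = 4), 118.1 ± 10.3 in LAC (n = 3) and 81.6 ± 11.8 at ID2 (n = 3). It then stood at 11.3 ± 1.17 (n = 4, ID4), 15.5 ± 2.81 (n = 6, ID6), 38.8 ± 8.25 (n = 3, ID8) and 57.5 ± 4.85 CPM (n = 4, REG). Its ID8 level was above ID4 and ID6 and below NUL (edgeR adjusted p = 0.0239), and did not differ beyond the threshold from REG (edgeR adjusted p = 0.38). Bhmt had its lowest mean at ID6, at 1388 ± 490.9 CPM, against 4073 ± 900.5 at ID4, 4572 ± 1711 at ID8 and 2990 ± 788.5 in NUL. Against ID4, 9 genes of the methionine list and 13 of the amino acid list were lower at ID6, against 4.64% of all genes, and 1 and 0 were lower at ID8, against 0.828% of all genes.

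Dnajb9 and Nop56, of the ER and ribosome lists, had higher means at ID6 than at ID2, ID4 and ID8. Dnajb9 was at 55.4 ± 12.0 CPM at ID2, 64.9 ± 11.6 at ID4, 108.9 ± 18.3 at ID6 and 47.0 ± 10.4 at ID8, against 85.8 ± 15.6 in NUL, 133.5 ± 25.1 in LAC and 91.6 ± 31.2 at REG. It was higher at ID6 than at ID4 (log2 fold change 0.75, edgeR adjusted p = 0.0204), and ID8 did not differ from ID4 beyond the threshold (-0.46, edgeR adjusted p = 0.426) or from NUL (-0.87, edgeR adjusted p = 0.0945). Nop56 was at 18.6 ± 1.56, 19.5 ± 1.10, 31.7 ± 7.13 and 19.5 ± 1.64 CPM at ID2, ID4, ID6 and ID8 (SD, n = 3, 4, 6 and 3). Of the 28 genes of the ribosome list 9 were higher at ID6 than at ID4, and of the 34 of the ER list 2 were higher and 1 lower, against 3.89% higher and 4.64% lower over all genes. No gene of either list was called between ID8 and NUL, where the medians were -0.35 for the ER list and -0.23 for the ribosome list. Osgin1 was at 134.3 ± 23.6 CPM at ID2, 297.7 ± 66.3 at ID4, 372.1 ± 44.1 at ID6 and 135.5 ± 17.7 at ID8, and at ID8 it was also lower than in NUL (edgeR adjusted p = 0.00853).

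**Figure D3:**
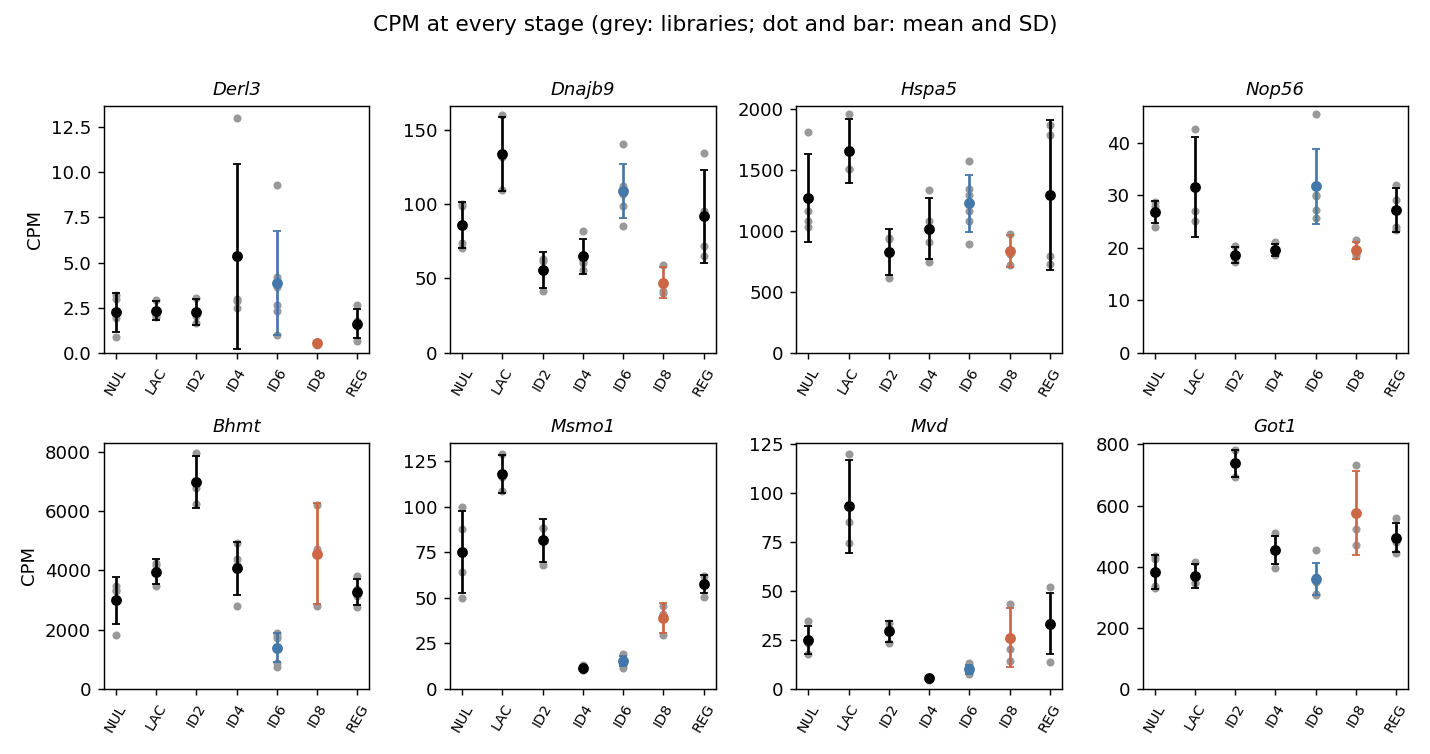
CPM of 8 genes at the 7 stages, with each library in grey and the mean and SD of a stage as a dot and bar (ID6 blue, ID8 orange, others black); each axis starts at 0. Bhmt has its lowest mean at ID6 (1388 CPM), Msmo1 at ID4 (11.3 CPM), and Dnajb9 its lowest at ID8 (47.0 CPM).

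The number range was examined where both ranges occur. The libraries under 200 there were ID2_31, ID2_39, ID4_13 and ID4_15. Of the ID8 libraries, only ID8_14 has a number close to these. ID8_98b and ID8_101b carry higher numbers and a letter b that no other title has. Whether an estimate from ID2 and ID4 holds for ID8_98b and ID8_101b was not tested. The 7 ID2 and ID4 libraries, which are not part of the ID8 and ID6 comparison, were fitted with stage in the model. Between numbers under 200 and numbers of 200 or over, 3 genes (0.0183%) were called. An unadjusted p under 0.05 (edgeR) was found for 1175 genes. None of the 677 genes above was among the 3. With so few libraries real differences can miss the threshold, and these counts do not show that the range had no effect. In these libraries the 390 genes that rose at ID8 had a median log2 difference of -0.006 (numbers under 200 minus the rest), with 47.9% above 0, and the 287 that fell had a median of 0.032, with 39.4% below 0. Over all genes the median was 0.005 and 51.0% were above 0. The medians of the cholesterol, ER, amino acid and ribosome lists were 0.13, -0.01, -0.06 and 0.01, and those of the 2 clock lists were 0.35 and -0.30.

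With the number range in the model of all 27 libraries, estimated from ID2 and ID4, 6 genes (0.0365%) were called between ID8 and ID6, all 6 among the 677: Cmbl, Gstt2, Spata2l, Acad12 and Gm15408 were higher and Osgin1 lower. The medians moved little, single genes moved more, and the errors grew. The median log2 fold change of the 390 genes was 0.539 in place of 0.519, that of the 287 was -0.509 in place of -0.481, and 676 of 677 kept their sign, while the median SE of the called genes was 0.182 in place of 0.123. Derl3 had a log2 fold change of -3.85 (SE 0.95), Dnajb9 -1.20 (0.32), Msmo1 1.29 (0.27), Bhmt 1.84 (0.42) and Got1 0.74 (0.19). The log2 fold changes of the clock genes Dbp, Tef and Cry1 were 1.01, 0.55 and -0.57 in this model and 2.58, 0.98 and -1.08 without the term. For Derl3 the log2 difference between number ranges within ID2 and ID4 was 1.03 (SE 0.69). ID4_13 held its highest value there (ID4 mean 5.34 ± 5.13 CPM, SD). The exocrine pancreas markers summed to as much as 1643 CPM in stages other than ID6 and ID8. Their median difference between ranges was 11.68, and their median log2 fold change was -7.25 with the term and 4.52 without it. Whether these markers bear on the Derl3 value was not tested.

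The 6 genes called in both models were these. Cmbl, a carboxymethylenebutenolidase that activates prodrugs, was at 60.4, 71.1 and 86.2 CPM (lowest, median, highest) in ID6 and at 139.1, 106.0 and 150.2 CPM in ID8_101b, ID8_14 and ID8_98b. Spata2l rose to 25.2 ± 4.799 CPM at a log2 fold change of 0.95, and Acad12, an acyl-CoA dehydrogenase family member with fractional counts in 27 libraries, from 17.8 ± 2.53 to 31.4 ± 4.79 (SD, n = 6 and 3). Gm15408, a long noncoding RNA gene (chromosome 5, 149006962 to 149012776), rose from 1.16 ± 0.357 to 3.94 ± 0.310 CPM, and its mean in each of the other 5 stages lay between 1.52 (NUL) and 2.15 CPM (ID2). Each of the 6 except Gstt2 was called in all 9 fits without 1 library; Gstt2 had an edgeR adjusted p of 0.108 without ID8_101b.

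**Figure D4:**
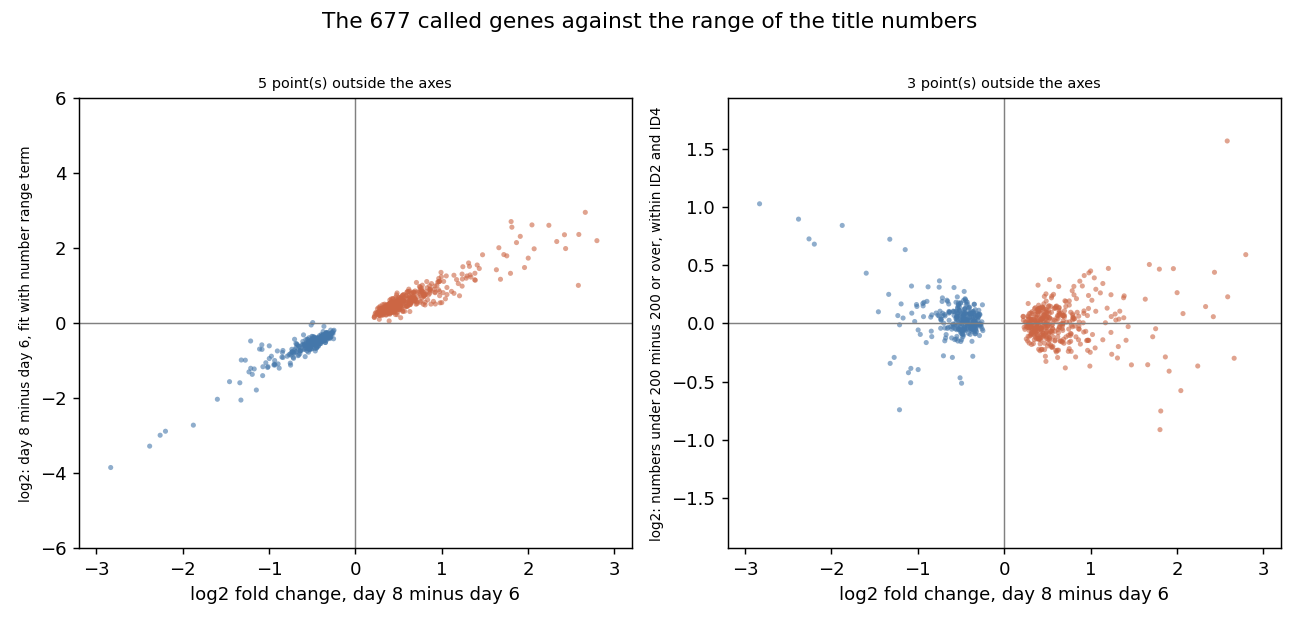
The 677 called genes (orange higher, blue lower at ID8): left, log2 fold change with the number range in the model against that without it; right, log2 difference between number ranges within ID2 and ID4 against the ID8 minus ID6 log2 fold change. On the left, 676 genes keep their sign; on the right, 187 of 390 genes that rose lie above 0.

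**Figure D5:**
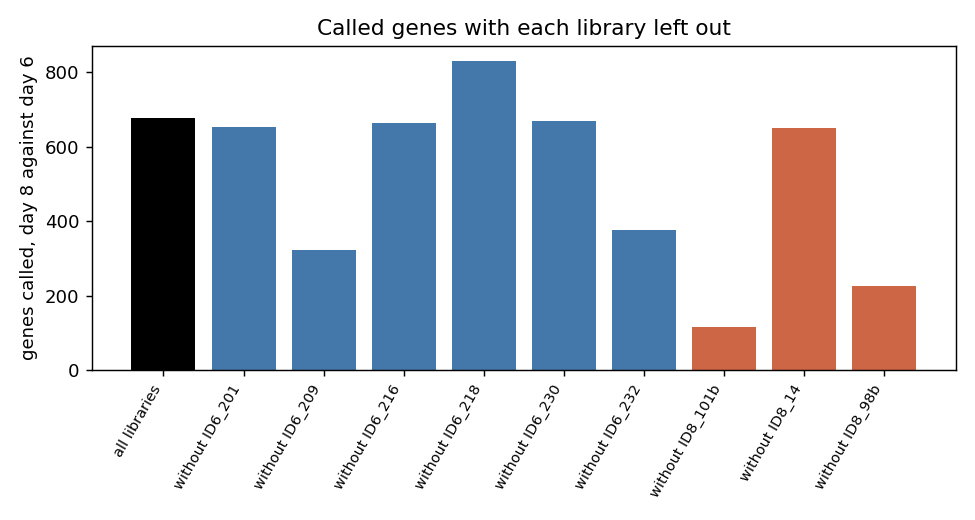
Number of genes called between ID8 and ID6 with all libraries (black) and with each ID6 (blue) or ID8 (orange) library left out; the axis starts at 0. The count is lowest without ID8_101b (117) and highest without ID6_218 (829).

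Single libraries carried much of the count. Without ID8_101b, the library of lowest depth, 117 genes were called, without ID6_209 323 and without ID6_232 376; without ID8_98b the count was also under 323. Of the 677 genes, 76 were called in every one of the 9 fits. Dbp, Npas2 and Acot1 kept their call in 1 of the 9, Elovl5, Gstp1, Saa3, Sec11c and Thrsp in 2, and Cyp2b9, Gstm2, Hba-a1, Mthfd2, Ugt1a1, Vsig4 and Serpina3n in 3. Higher genes made up 57.6% of the calls, 64.2% of them with upper quartile scaling and 16.6% on log2(TPM + 1), where the median over all genes was -0.07.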

How the data were processed

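RNA was sequenced from 27 livers, 1 library per animal. Expected counts and TPM per gene were made by the authors with STAR 2.6.1a and RSEM 1.3.1 on mm10 (GRCm38), per the submitters' processing notes; the annotation, trimming and strand setting are not given in the sources used here. The deposited estimated counts need not be whole where reads fit several genes. Symbols and positions were matched from GENCODE M21, which holds 51633 of 51826 genes; the 193 not found carried 0.0147% of counts.

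Expected counts were rounded, low genes were filtered, and 16428 genes were fitted over all 7 groups with TMM scaling in edgeR 4.0.16 (R 4.3.3; quasi-likelihood test, 20 residual degrees of freedom, biological coefficient of variation 0.19). CPM are TMM-scaled. Alternatives used limma 3.58.1 on log2(TPM + 1) or log2(TPM + 0.1), DESeq2 1.42.0, other scalings, filters and covariates, and each library left out. The fit was tested on simulated data. ID6 and ID8 libraries held 41120650 to 75664540 counts, so the spread between animals, not counting error, limits most values.

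The members and gene lists were chosen with earlier results of these data known. Genes were named by rule: up to 12 rising and 12 falling called genes of largest change with CPM that do not overlap, log2 CPM averaging 1 or more, and no placeholder symbol; up to 6 called members of lowest p per list; up to 3 abundant members not called; and genes called with and without the number range term. Some genes that the rule selects are not reported here. Any other gene is marked where it is named as picked with its values known. Promoter windows are RefSeq's on GRCm38.p6.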

Additional observations from a re-analysis of the deposited data

Results flagged for a closer look

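Among 168 values screened within the 6 ID6 libraries, 11 had a highest or lowest library whose gap to the nearest other, divided by the whole range, was above Dixon's 95% critical value; chance alone flags about 1 in 20 groups. In ID6_216 the high values were those of the hemoglobin genes Hba-a1 (38.8 CPM), Hba-a2 (64.5), Hbb-bs (143) and Hbb-bt (11.7), and Sec61a1 (306), a subunit of the ER translocon. High values in ID6_209 were Nop56 (45.5 CPM) and Gnl3 (37.7), both of ribosome assembly. High values in ID6_230 were Fasn (730 CPM) and the clock repressor gene Nr1d1 (60.7). ID6_232 held the lowest values of Pygl (451 CPM), glycogen phosphorylase, and Ctsl (584), a lysosomal protease.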

How the results depend on the processing

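The 677 calls between ID8 and ID6 became 1201 with DESeq2, 432 with the effective length offset and 308 with only the 9 libraries. They became 146 at an adjusted p under 0.01. In an alternative chosen after seeing the data, 170 were called without ID6_201, ID6_209 and ID6_216 together. These libraries were left out because they had the shortest fragments of ID6. With the number range term 6 were called by edgeR (2391 genes at an unadjusted p under 0.05), and with that term and the length offset, also chosen after seeing the data, 0. With each library left out in turn the count ran from 117 (without ID8_101b) to 829 (without ID6_218). The share of calls that rose, 57.6%, was 15.5% on log2(TPM + 0.1), 16.6% on log2(TPM + 1), 64.2% with upper quartile scaling, 83.3% with the number range term and 76.0% at the stricter threshold, and 54.2% to 79.2% with 1 library left out. The count for the number range within ID2 and ID4, 3, ran from 0 to 3 with 1 library left out. The causes were not tested. No called gene of the 96 screened reversed in any alternative, 26 stayed called in all 9 fits that omit a library, and 36 of 68 screened genes that were not called changed sign in some alternative. No paired analysis was possible because the ID8 and ID6 titles share no numbers.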
